A study of Mus musculus with 24 samples.

Results

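The AP-1 transcription factor genes were followed in the hippocampal CA1 region of mice after status epilepticus (SE), a prolonged seizure induced here with pilocarpine. The members were chosen by name, as genes of the AP-1 families, with earlier results of these data known: Fos, Fosb, Fosl1 and Fosl2 of the Fos family, Jun, Junb and Jund of the Jun family, and Atf3. All 8 were among the 18647 genes of the deposited table, and all 8 were among the 18153 genes that passed the filter on low counts. The mice were adult C57Bl/6N, at least 60 days old and at least 20 g in weight. Mice of all groups received 1 mg/kg scopolamine methyl nitrate and later 4 mg/kg diazepam. The SE groups received 335 mg/kg pilocarpine in between and entered the study only if they developed SE, whereas controls (Ctr) received saline in place of pilocarpine. Whole CA1, a mixture of neurons, glia and vessels, was dissected at 5 times after SE, the first at 6 and 12 h, the next at 24 and 36 h and the last at 72 h, and in controls at 12 and 36 h and at 72 h. There were 8 groups with 3 libraries apiece (24 libraries), and since the labels do not say whether each library is a separate mouse, p-values measure the spread between libraries.

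AP-1 is a dimer of basic leucine zipper proteins that binds short palindromic DNA elements. Fos proteins do not form stable dimers with each other and need a Jun partner, whereas Jun proteins can also pair among themselves and Atf3 pairs with Jun proteins or with itself. In neurons, strong firing raises Fos, Fosb and Junb as immediate early genes through CREB and serum response factor (SRF) at their promoters. Jun and Atf3 are also known as genes of the stress and injury response, driven in part by c-Jun N-terminal kinases. Jund is usually the most evenly expressed Jun gene.

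In the mouse genome (GRCm39), Fos lies at chr12:85520658-85524047 and Fosl1 at chr19:5497575-5505974, both on the plus strand, as do Fosl2 at chr5:32292707-32315186 and Jund at chr8:71151599-71153265. Fosb lies at chr7:19036621-19043976, Jun at chr4:94937271-94940459, Junb at chr8:85701113-85705359 and Atf3 at chr1:190902493-190950241, all on the minus strand. The values below count reads over the exons of each gene.

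The promoters of 4 members are shown because they carry the elements through which AP-1 genes are known to respond to CREB, SRF and AP-1 itself. They are the 300 bases before the start of the canonical transcript in GENCODE M39, read from GRCm39, the build of the deposited counts, and written 5′ to 3′ on the strand of the gene. Capitals mark TGACG or its reverse complement, the palindrome TGACGTCA, TGANNTCA with any middle bases, and the CArG box, the element of SRF. The Fos promoter is chr12:85520358-85520657 on the plus strand, the Fosb promoter chr7:19043977-19044276 on the minus strand, the Jun promoter chr4:94940460-94940759 on the minus strand and the Jund promoter chr8:71151299-71151598 on the plus strand.
Fos: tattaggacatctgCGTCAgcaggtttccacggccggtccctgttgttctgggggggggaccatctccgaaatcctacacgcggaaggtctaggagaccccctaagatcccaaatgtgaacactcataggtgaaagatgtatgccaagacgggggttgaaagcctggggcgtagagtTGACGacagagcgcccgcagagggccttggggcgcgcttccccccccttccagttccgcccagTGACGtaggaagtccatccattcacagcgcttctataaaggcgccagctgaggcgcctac
Fosb: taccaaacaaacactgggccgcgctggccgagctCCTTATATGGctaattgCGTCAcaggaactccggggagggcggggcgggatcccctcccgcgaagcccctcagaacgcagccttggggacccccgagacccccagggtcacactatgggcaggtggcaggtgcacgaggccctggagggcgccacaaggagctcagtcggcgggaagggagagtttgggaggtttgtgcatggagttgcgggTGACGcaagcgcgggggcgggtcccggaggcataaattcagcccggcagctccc
Jun: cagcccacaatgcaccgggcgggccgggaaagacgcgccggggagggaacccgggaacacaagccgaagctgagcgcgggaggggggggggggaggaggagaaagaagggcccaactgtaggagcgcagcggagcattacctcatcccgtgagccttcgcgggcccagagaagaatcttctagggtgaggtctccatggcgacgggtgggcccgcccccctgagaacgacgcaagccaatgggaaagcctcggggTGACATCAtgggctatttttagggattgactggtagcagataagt
Jund: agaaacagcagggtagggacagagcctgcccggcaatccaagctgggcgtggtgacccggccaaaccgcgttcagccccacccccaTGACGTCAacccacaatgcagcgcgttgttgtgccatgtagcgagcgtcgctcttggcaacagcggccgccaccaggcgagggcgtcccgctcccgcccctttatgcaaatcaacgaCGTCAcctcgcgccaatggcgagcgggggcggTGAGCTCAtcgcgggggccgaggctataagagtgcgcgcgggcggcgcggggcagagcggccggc

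Both strands were searched for each motif, and overlapping matches were all counted. TGACG, the core of the CREB element, was found in the promoters of Fos, Fosb, Junb and Jund, and in 23.8% of the 15224 promoters of the same length. In Fos 1 match ended 56 bases before the start, and in Fosb 1 ended 50 bases before it. The full palindrome TGACGTCA, which contains TGACG, was found among the members in the Jund promoter, 214 to 207 bases before the start, and in 2.04% of all promoters. TGANNTCA, which includes TGACGTCA, was found in Jun and Jund and in 9.95% of all promoters, and the match of Jun lay 45 to 38 bases before the start. The CArG box was found in Fosb, 266 to 257 bases before the start, and in 1.54% of all promoters. A site cut by the border of the window or lying upstream of it would be missed, in Fos as in any other member. TGANTCA, the classical AP-1 element, was in 5.95% of all promoters and was not found in these windows of the 8 members, which says nothing about sites elsewhere. These matches are descriptions of the sequence.

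The libraries held between 2663936 and 30133731 counts (median 13521590), and the smallest was a Ctr 72 h library. The sum of 6 markers of CA1 pyramidal cells was 384.2 to 1673 CPM (counts scaled to a common library size), and that of 5 markers of dentate granule cells, from a neighbouring region, was 5.80 to 234.7 CPM. These sums do not by themselves tell CA1 from its neighbouring regions. In 6 libraries, RNA of sensory ganglion genes was high, with a sum of 12 markers of 449.6 to 2381 CPM against at most 99.7 CPM in the others. These were Ctr 72 h replicate 2, SE 6 h replicate 3, SE 12 h replicate 1, SE 36 h replicate 3 and SE 72 h replicates 1 and 2. The numbers in the sample labels fell into 3 ranges, and the range from 92 to 104 held SE libraries only, among them all 3 of SE 24 h. The values of the members and the counts of the gene lists were recomputed without the 6 libraries, and those of the members, where the ranges allow it, also within a range. In bulk tissue, fewer cells of a type and less RNA per cell cannot be told apart.

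At 12 h after SE, all 8 members were higher than in Ctr 12 h, and in each of them all 3 SE libraries lay above all 3 controls. Among all genes tested, 13.9% were called higher at this time (adjusted p at most 0.05 and log2 fold change, log2FC, of at least 0.66), and 24.5% had all SE libraries above all controls. The median log2FC of the members was 2.75, against 0.0071 over all genes. The fold changes came from a model with 1 factor of unwanted variation. The library values are CPM scaled with trimmed means of M values (TMM) and are not adjusted for this factor.

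Fos, the founding immediate early gene of the family, was at 105.9, 149.2 and 261.9 CPM in the 3 SE 12 h libraries and at 12.1, 16.3 and 22.7 CPM in Ctr 12 h. The lowest SE library was thus well above the highest control, and the fitted increase was 10.1-fold (log2FC 3.33, s.e. 0.64, adjusted p = 0.000448). Fosb, whose stable splice form ΔFosB is known to accumulate after repeated activity, was at 125.2, 308.4 and 558.3 CPM against 13.3, 16.2 and 17.98 CPM (log2FC 4.33, s.e. 0.80, adjusted p = 0.000314). Gene counts do not separate its splice forms. Fosl2, which encodes Fra-2, was at 188.2, 307.9 and 704.8 CPM against 58.7, 103.3 and 106.3 CPM (log2FC 2.16, s.e. 0.50, adjusted p = 0.00223).

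Fosl1, which encodes Fra-1, was close to absent in controls. It had 0 to 3 counts in each Ctr 12 h library and 84 to 141 counts in each SE 12 h library, or 4.18, 4.54 and 11.2 CPM. The ratio of pooled counts per pooled library size was 73.3, with an exact 95% interval of 28.4 to 271 that covers counting error only. Its fitted log2FC of 6.18 (s.e. 0.65, adjusted p = 8.51e-07) depends on the prior count. Of the exon bases of Fosl1, 57.2% are shared with Ccdc85b on the other strand, and counting without strand could not assign reads there to either gene. Ccdc85b was at 67.6 ± 9.22 CPM in Ctr 12 h and 72.3 ± 7.37 CPM in SE 12 h (SD, n = 3), a difference smaller than either SD.

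The Jun genes supply the partner of the Fos proteins, and all 3 rose. Jun was at 194.5, 225.5 and 473.5 CPM after SE and at 79.3, 79.5 and 84.9 CPM in Ctr 12 h (log2FC 1.87, s.e. 0.43, adjusted p = 0.00191). Junb was at 120.1, 175.6 and 292.5 CPM against 38.0, 55.6 and 58.3 CPM (log2FC 1.95, s.e. 0.43, adjusted p = 0.00135). Jund was at 37.8, 82.5 and 114.2 CPM against 15.6, 21.01 and 27.9 CPM (log2FC 1.86, s.e. 0.34, adjusted p = 0.000294). The ranges were separate in all 3 genes, although the gap was small in Jund. Jund shares 52.6% of its exon bases with Gm11175 on the other strand, which was not analysed here.

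Atf3, a stress gene that can act as a repressor, was at 17.2, 24.99 and 62.2 CPM in SE 12 h and at 0.379, 0.619 and 0.899 CPM in Ctr 12 h. Its increase was 53.4-fold (log2FC 5.74, s.e. 0.81, adjusted p = 1.94e-05).

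**Figure D1:**
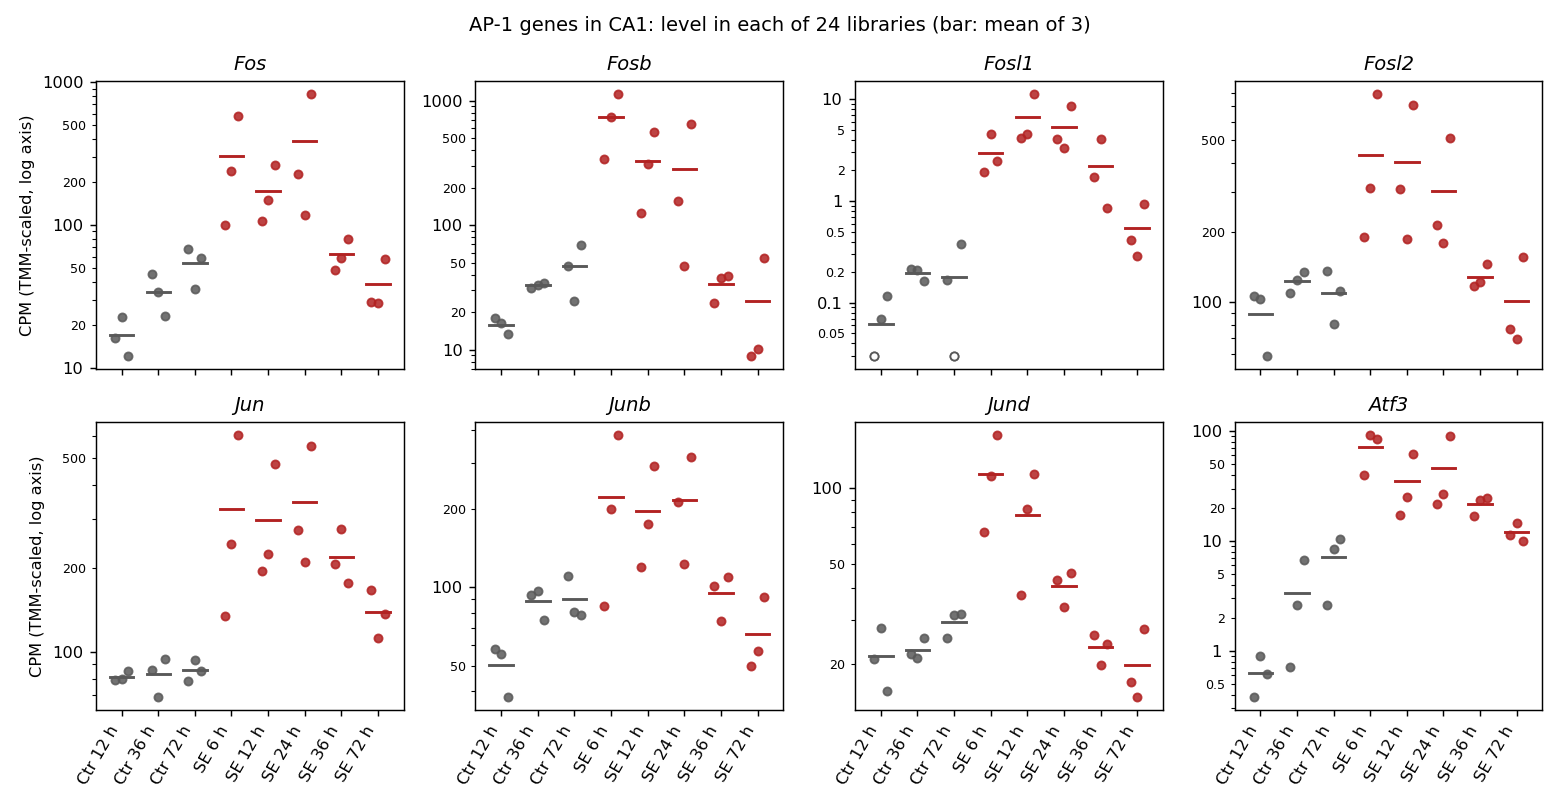
CPM (TMM-scaled, log axis) of the 8 AP-1 genes in each of the 24 libraries by group, with bars for the mean of 3 libraries and open circles at the foot of the axis for libraries with 0 counts. All 3 SE 12 h libraries lie above all 3 Ctr 12 h libraries in each of the 8 panels, and in Fosl1 the controls stay at or below 0.375 CPM.

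At 36 h, fewer members were called. Fosl1, Jun and Atf3 were called higher than in Ctr 36 h, 3 of 8, where 12.7% of all genes tested were called higher and 8.91% lower. The remaining members did not pass the test.

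Jun was at 176.9, 207.0 and 276.7 CPM in SE 36 h and at 68.5, 86.2 and 94.2 CPM in Ctr 36 h (log2FC 1.41, s.e. 0.42, adjusted p = 0.0150). All SE libraries lay above the controls, but the call was lost without Ctr 36 h replicate 2 (log2FC 1.29) or without SE 36 h replicate 2 (1.21). Atf3 was at 17.04, 23.8 and 24.8 CPM against 0.719, 2.61 and 6.74 CPM, a 6.68-fold increase (log2FC 2.74, s.e. 0.66, adjusted p = 0.00333). Fosl1 had 90 counts over the 3 SE libraries and 9 over the 3 controls, a pooled count ratio of 10.3 (5.21 to 23.4; log2FC 3.26, s.e. 0.60, adjusted p = 0.000299).

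The other 5 members were Fos, Fosb, Fosl2, Junb and Jund. Fos was at 48.0, 58.7 and 79.9 CPM in SE 36 h and at 23, 34.0 and 45.3 CPM in Ctr 36 h (log2FC 0.88, s.e. 0.59, adjusted p = 0.28). The groups did not overlap, as in 25.8% of all genes tested, but the difference did not pass the test. It passed with only the compared groups in the fit (log2FC 0.86), when 4 of 8 members were called. Fosb was at 23.9, 37.9 and 39.3 CPM against 31.4, 33.3 and 34.6 CPM (log2FC 0.04, s.e. 0.71, adjusted p = 0.975). The log2FC was 0.06 (s.e. 0.49) in Fosl2, 0.10 (s.e. 0.41) in Junb and 0.03 (s.e. 0.34) in Jund, and these groups overlapped. With these errors, changes of the size seen in Jun could not be told from none in Fosb.

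At 72 h, 1 of 8 members was called higher than in Ctr 72 h, Fosl1, where 15.2% of all genes tested were called higher and 4.21% lower. It rested on 29 counts in the 3 SE libraries and 3 counts in the 3 controls, a pooled count ratio of 4.11 (1.28 to 21.1; log2FC 3.54, s.e. 1.07, adjusted p = 0.0183). The ranges of the CPM overlapped, at 0.286 to 0.926 after SE and 0 to 0.375 in controls. The call was lost without the factor of unwanted variation (log2FC 1.88), with limma-voom (1.69), with the range of label numbers in the fit (4.27), with the replicate number as a block (2.83), with thinned counts (2.96), without Ctr 72 h replicate 2 (1.29), which dominated that factor, and without SE 72 h replicate 3 (2.82).

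Jun was the member whose 3 SE 72 h libraries all lay above the 3 controls, as in 19.4% of all genes tested. It was at 112.3, 136.9 and 166.2 CPM in SE 72 h and at 78.2, 85.1 and 93.5 CPM in Ctr 72 h, without passing the test (log2FC 0.70, s.e. 0.43, adjusted p = 0.236). Without the 6 libraries high in sensory ganglion RNA, which leaves 1 SE 72 h library that is assumed to vary like the other groups, Jun passed (log2FC 0.76, s.e. 0.17, adjusted p = 0.00835) and Fosl1 did not (2.07, s.e. 0.77, adjusted p = 0.0897). Atf3 was at 10.0, 11.4 and 14.6 CPM against 2.62, 8.53 and 10.5 CPM (log2FC 0.95, s.e. 0.70, adjusted p = 0.337). The log2FC of Fos was -0.47 (s.e. 0.60), of Fosb -0.89 (s.e. 0.75), of Fosl2 -0.11 (s.e. 0.49), of Junb -0.45 (s.e. 0.42) and of Jund -0.56 (s.e. 0.35). In 2 of the 3 SE 72 h libraries, Fosb was at 8.88 and 10.1 CPM, below each of the 9 control libraries, and in the third it was at 54.9 CPM. The 2 low libraries are replicates 1 and 2, both high in ganglion RNA. Without the 6 such libraries, the log2FC at 72 h was -0.04 (s.e. 0.41) in Fosb, -0.01 (s.e. 0.30) in Jund and -0.05 (s.e. 0.31) in Junb. Without Ctr 72 h replicate 2, Fosb was called lower (log2FC -1.46), and with the range of label numbers in the fit Jund was (-1.51).

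Microglial markers rose at these late times. The sum of 9 markers was 1352 to 1985 CPM in SE 72 h and 648 to 734 CPM in SE 36 h. Over the controls it was 273.3 to 347 CPM, and the part of these markers in the AP-1 values was not tested. The mean CPM of each member was lower in SE 72 h than in SE 36 h, and Fosl1 alone was called. Without the 6 ganglion-rich libraries, which leaves 1 SE 72 h library, the log2FC from 36 to 72 h was positive in Fosb (0.86), Fosl2 (0.38), Jund (0.25), Fos (0.13) and Junb (0.06). It was negative in Fosl1 (-1.59), Atf3 (-1.01) and Jun (-0.81). The sum of the neuronal markers was 8132 to 8779 CPM in SE 72 h and 11440 to 18160 CPM in controls.

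The time points 6 and 24 h had no controls of their own and were compared with the mean of the 3 control groups. All 8 members were higher at 6 h, where 15.8% of all genes tested were called higher and 6.21% lower. The same was true at 24 h, where 14.9% of all genes tested were called higher and 9.21% lower. These comparisons share the controls with those above and with each other. Without the 6 libraries high in ganglion RNA, all 8 members were again called at 6, 12 and 24 h, and Fosl1, Jun and Atf3 at 36 h. In that fit, 12.7%, 14.9% and 13.45% of all genes tested were higher at 6, 12 and 24 h, and 12.3% at 36 h.

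At 6 h, Fosb was at 339.4, 746.7 and 1130 CPM, its highest mean in the series. The 9 control libraries had a median of 31.4 CPM and ranged from 13.3 to 69.7 CPM (log2FC 4.71, s.e. 0.53, adjusted p = 1.08e-06). Fos was at 100, 237.6 and 574 CPM, against a control median of 34.0 CPM and a range from 12.1 to 67.8 CPM (log2FC 3.30, s.e. 0.43, adjusted p = 7.91e-06). Atf3 was at 40.0, 85.3 and 91.3 CPM, whereas the highest of the 9 controls was at 10.5 CPM (log2FC 4.93, s.e. 0.48, adjusted p = 1.82e-07). Jund was at 67.1, 111.5 and 161.9 CPM, its highest level in the series, and the 9 controls did not exceed 31.5 CPM (log2FC 2.23, s.e. 0.25, adjusted p = 1.05e-06). The log2FC was 2.03 (s.e. 0.36) in Fosl2, 1.98 (s.e. 0.31) in Jun and 1.59 (s.e. 0.31) in Junb. In Junb, the lowest SE 6 h library (84.7 CPM) lay within the range of the controls, 38.0 to 110.5 CPM. The pooled count ratio of Fosl1 was 20.1 (11.9 to 36.3).

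At 24 h, Fos was at 117.5, 227 and 822.4 CPM (log2FC 3.65, s.e. 0.43, adjusted p = 1.40e-06), and Jun at 210.6, 274.1 and 552.9 CPM (log2FC 2.06, s.e. 0.31, adjusted p = 2.92e-05). Jund was closer to the controls, at 33.6, 43.2 and 46.0 CPM (log2FC 0.75, s.e. 0.26, adjusted p = 0.0284), and its call was lost without SE 24 h replicate 1 or 3. Fosb was at 46.9, 156.3 and 645.7 CPM, with the lowest library inside the control range (log2FC 3.33, s.e. 0.52, adjusted p = 4.06e-05). The log2FC was 1.52 (s.e. 0.37) in Fosl2, where the call was lost without SE 24 h replicate 3 (0.90), 1.55 (s.e. 0.31) in Junb and 4.29 (s.e. 0.48) in Atf3. For Fosl1, the pooled count ratio was 36.8 (22.2 to 65.5).

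**Figure D2:**
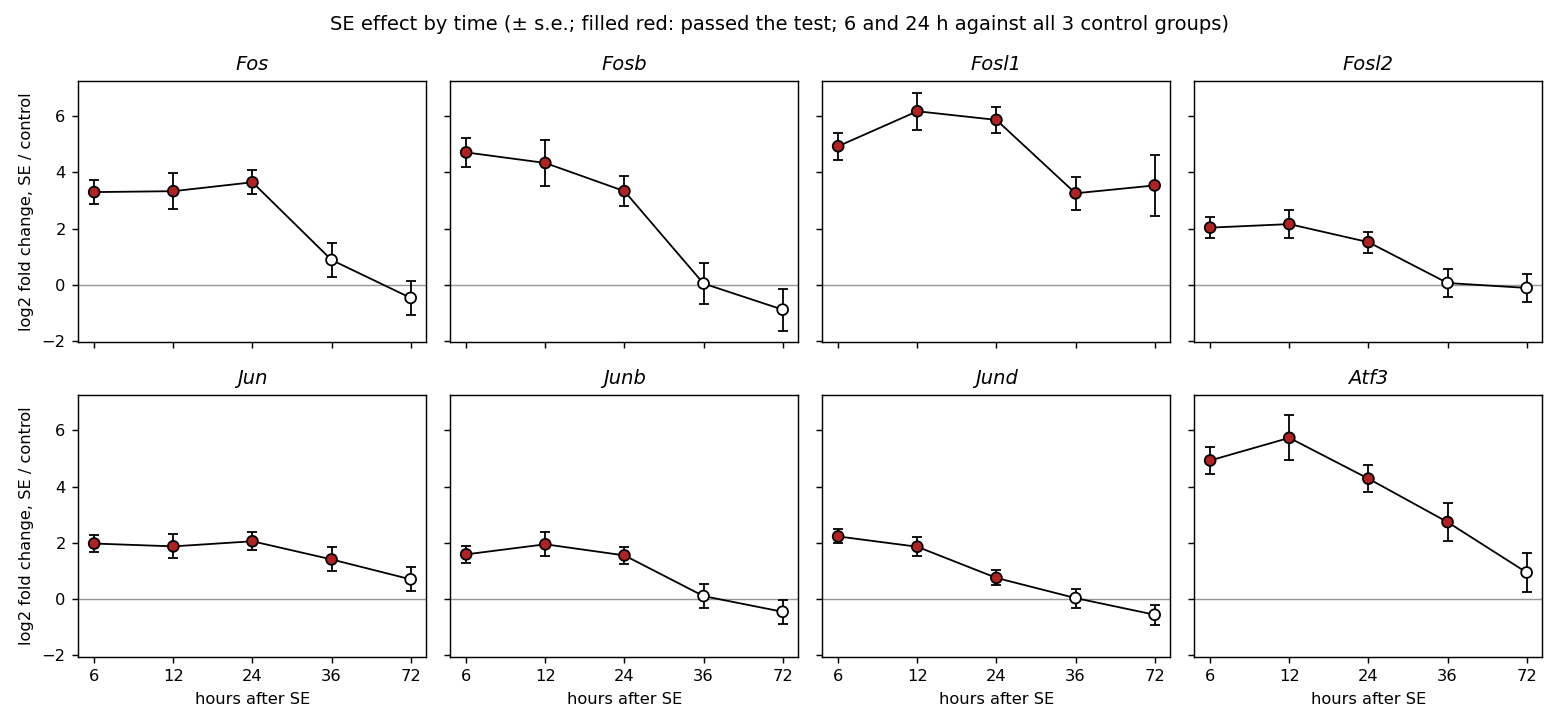
Log2FC of SE against control for each AP-1 gene by hours after SE, with bars of ± 1 s.e.; red points passed the test and white points did not. The members stay up to 24 h and then part, with Fosl1, Jun and Atf3 still called at 36 h (3.26, 1.41 and 2.74) while Fosb is at 0.04.

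The fall of the SE effect was tested as the difference between the effects at 2 times. From 12 to 72 h, the effect fell in 6 of 8 members, where 8.20% of all genes tested had a lower effect at 72 h. It fell by 5.22 on the log2 scale in Fosb (s.e. 1.08, adjusted p = 0.00221), by 4.79 in Atf3 (s.e. 1.07, adjusted p = 0.0038), by 3.80 in Fos (s.e. 0.87, adjusted p = 0.0045), by 2.42 in Jund (s.e. 0.49, adjusted p = 0.00187), by 2.40 in Junb (s.e. 0.60, adjusted p = 0.00767) and by 2.27 in Fosl2 (s.e. 0.70, adjusted p = 0.0254). The differences of Jun (-1.17, s.e. 0.60, adjusted p = 0.164) and Fosl1 (-2.64, s.e. 1.501, adjusted p = 0.215) did not pass. Each difference also holds the change of the controls. From Ctr 12 h to Ctr 72 h, the log2FC was 3.24 (s.e. 0.89) in Atf3, 1.64 (s.e. 0.63) in Fos and 1.48 (s.e. 0.76) in Fosb. It was 0.85 in Junb, 0.45 in Jund and 0.28 in Fosl2, and none of these control changes passed in edgeR. For the fall of the effect from 12 to 72 h, the call of Fosl2 was lost on leaving out any of 5 single libraries. The smallest difference was -1.59, without SE 12 h replicate 3. It was also lost with the range of label numbers in the fit (-2.31), and the call of Atf3 was lost with limma-voom (-4.23). Without the 6 libraries high in ganglion RNA, all 8 members passed, Jun with -1.24 (s.e. 0.22, adjusted p = 0.00316).

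From 12 to 36 h, 2 of 8 members passed, Fosb (-4.29, s.e. 1.05, adjusted p = 0.0287) and Jund (-1.83, s.e. 0.48, adjusted p = 0.0382), where 1.62% of all genes tested had a lower and 2.21% a higher effect. The unadjusted p was under 0.05 in 7 members, and Jun was the exception (-0.46, s.e. 0.59, adjusted p = 0.715). Leaving out Ctr 72 h replicate 2, a library outside this comparison that dominated the factor of unwanted variation, let 6 members pass, and 6 passed without the 6 libraries. Neither call held throughout when single libraries were left out. Of the 13 libraries left out in turn, 9 ended the call of Fosb and 10 that of Jund. Over the 13, the values lay between -4.75 and -3.70 for Fosb and between -2.16 and -1.46 for Jund. No member's effect differed between 36 and 72 h in edgeR's test, nor in DESeq2 or limma-voom, and none had an unadjusted p under 0.05, where 1.43% of all genes tested had a lower and 3.92% a higher effect at 72 h.

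Between consecutive SE time points, few members passed the stricter threshold of an absolute log2FC of at least 1. Neither 12 against 6 h nor 24 against 12 h gave a call in edgeR, DESeq2 or limma-voom, and each had 1 member with an unadjusted p under 0.05. Of all genes tested, 0.446% were called higher and 0.898% lower at 12 than at 6 h, and 1.47% higher and 1.72% lower at 24 than at 12 h. From 24 to 36 h, Fos fell by 2.64 (s.e. 0.61, adjusted p = 0.0453), as did 0.182% of all genes tested, while 0.347% rose. It was lost without the factor of unwanted variation, with limma-voom, with the range of label numbers in the fit, without any of the 3 SE 36 h libraries, and without SE 24 h replicate 3 (log2FC -1.45). Fosb had a larger difference, -3.07, with a larger error (s.e. 0.75, adjusted p = 0.0589). In this comparison, 6 of 8 members had an unadjusted p under 0.05 in edgeR, as had 3015 of the 18153 genes tested. The median log2FC of the members was -1.21. From 36 to 72 h, Fosl1 fell by 1.89 (s.e. 0.52, adjusted p = 0.0250), as did 1.05% of all genes tested, while 3.08% rose, and the call was lost without SE 36 h replicate 2 (log2FC -1.17) and without SE 72 h replicate 1 (-1.71) or 2 (-1.67).

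In each member, mean levels were ordered with some SE groups first. In Fos, Fosl2, Junb and Jund, SE 6, 12 and 24 h held the first 3 places with ranges that overlapped from one place to the next, and the range of the third place was separate from that of the fourth. In Jun and Atf3, SE 36 h followed these 3 groups with overlap, and SE 72 h came next with a separate range. In Jun, SE 72 h was also separate from the control groups that followed, whereas in Atf3 it overlapped Ctr 72 h. In Fosb, SE 24 h in the third place overlapped Ctr 72 h in the fourth. In Fosl1, the order was SE 12, 24, 6, 36 and 72 h, each overlapping the next, before Ctr 36 h. Only neighbouring places were compared, and groups further apart can overlap. In Jun, the lowest SE 6 h library (134.0 CPM) lay inside the SE 72 h range, 112.3 to 166.2 CPM. In Junb, the lowest SE 6 h library (84.7 CPM) lay below the highest SE 36 h library (109.5 CPM).

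Levels between genes can be compared only per length of exon. Over the 9 controls, Junb (32.1 ± 9.55 CPM per kb) and Jun (26.1 ± 2.51) had the highest means, followed by Fos (14.9 ± 8.08), Jund (14.7 ± 3.11), Fosl2 (10.3 ± 2.41), Fosb (5.13 ± 2.84), Atf3 (1.53 ± 1.58) and Fosl1 (0.072 ± 0.058; SD, n = 9). At 6 h after SE, Fos (129 ± 103 CPM per kb) and Fosb (118 ± 63.3) had the highest means, above Jun (102 ± 76.7) and Junb (93.2 ± 63.0; SD, n = 3). The spread between SE 6 h libraries was larger than these differences. Fosb was thus below the 3 Jun genes in controls and among the highest members at 6 h.

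The controls also differed among themselves. Fos was at 12.1 to 22.7 CPM in Ctr 12 h, 23 to 45.3 in Ctr 36 h and 35.5 to 67.8 in Ctr 72 h. Atf3 was at 0.379 to 0.899, 0.719 to 6.74 and 2.62 to 10.5 CPM. Jun stayed between 68.5 and 94.2 CPM over all 9. No member was called between control groups, where at most 0.711% of all genes tested were called higher and 1.26% lower. The nearest was Atf3, higher in Ctr 72 h than in Ctr 12 h by a log2FC of 3.24 (s.e. 0.89, adjusted p = 0.069), which DESeq2 called (3.48). Between these groups, 0.325% of all genes tested were called higher and 0.606% lower. Between these groups 2 members had an unadjusted p under 0.05, between Ctr 36 h and Ctr 12 h 1 had, and between Ctr 72 h and Ctr 36 h none had. With only the compared groups in the fit, 3 members passed between Ctr 36 h and Ctr 12 h, namely Fos (1.05), Fosb (1.08) and Junb (0.83), and Fos (0.66) passed between Ctr 72 h and Ctr 36 h. Each SE effect at 12, 36 or 72 h is therefore relative to a control that was not at one level.

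Within some SE groups, the members varied together. SE 12 h replicate 3 and SE 24 h replicate 3 were the highest of their groups in all 8 members, and SE 6 h replicate 1 was the lowest of its group in all 8. SE 6 h replicate 3 and SE 72 h replicate 3 were highest in 6 of 8 members each. These libraries, other than SE 6 h replicate 1, and all SE 24 h libraries belong to the range of label numbers that held no control. SE 6 h replicate 3 is also high in ganglion RNA. In SE 36 h the members were split, with replicate 3 highest in 5, replicate 2 in 2 and replicate 1 in 1.

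Within a range of numbers, the same libraries were also compared where a control was present. In the range from 162 to 169, SE 12 h replicate 1 was above Ctr 12 h replicate 3 in all 8 members, with ratios of 8.75 for Fos, 9.44 for Fosb, 2.29 for Jun and 27.7 for Atf3. In the range from 109 to 122, both SE 6 h libraries lay above the 5 controls in 7 of 8 members, and in Junb the ranges overlapped. In the same range, the 2 SE 36 h libraries lay above the 3 Ctr 36 h libraries in 4 members, with ratios of 2.92 for Jun, 6.09 for Atf3, 14.8 for Fosl1 and 1.57 for Fos. The 2 SE 72 h libraries of that range, set against its Ctr 12 and 36 h libraries, were above them in Fosl1, Jun and Atf3 and below them in Fosb, Fosl2 and Jund. Both SE libraries are high in ganglion RNA. SE 72 h replicate 3, outside this range, was at 54.9 CPM in Fosb, 156.7 in Fosl2 and 27.5 in Jund. Without the 6 ganglion-rich libraries, which leaves that replicate alone, the log2FC against Ctr 72 h was -0.04, 0.34 and -0.01 in these genes. The within-range comparisons are values without a test, from libraries of the tests above, and their shares over all genes were not counted. With 1 library against 1, as in the range from 162 to 169, each gene lies above or below. For SE 24 h, the range and the group cannot be told apart. With the range as a factor in the fit, 4 members were called at 24 h instead of 8: Fosb (1.81), Fosl2 (0.57), Junb (0.60) and Jund (-0.16) were lost.

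**Figure D3:**
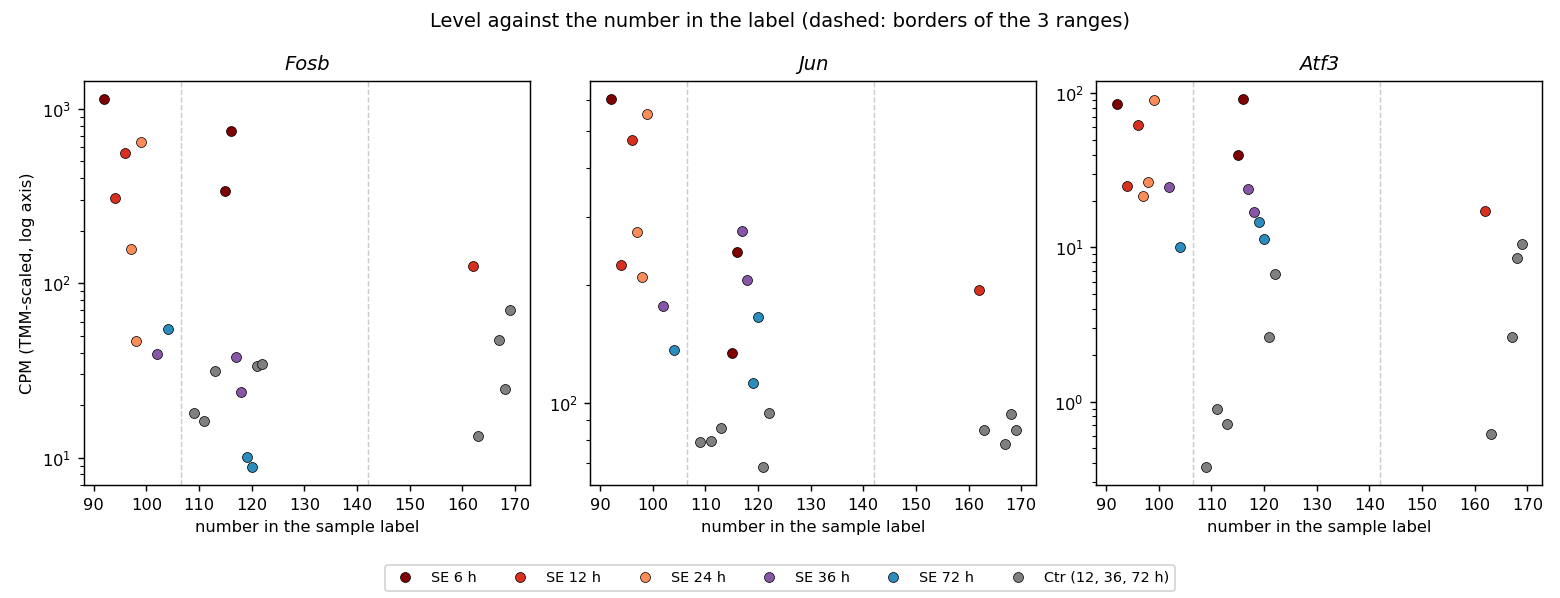
CPM (TMM-scaled, log axis) of Fosb, Jun and Atf3 in the 24 libraries against the number in the sample label, coloured by group, with dashed lines between the 3 ranges of numbers. The lowest range holds SE libraries only, and in the upper range the single SE 12 h library lies above the Ctr libraries in all 3 genes.

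Other genes of the pathway were taken from lists. Of 16 genes that textbooks give as AP-1 targets, 15 were higher at 12 h, 13 at 36 h and 12 at 72 h, and none was called lower. The same list had 13 higher at 6 h and 14 at 24 h, where 15.8% and 14.9% of all genes tested were. The median log2FC of the list at 12, 36 and 72 h was 4.26, 3.61 and 3.17, against at most 0.097 over all genes tested at these times. At these times 13.9%, 12.7% and 15.2% of all genes tested were called higher. Without the 6 libraries high in ganglion RNA, 15 and 13 genes of the list were called higher at 12 and 36 h. In that fit, 14.9% and 12.3% of all genes tested were higher at these times. The median log2FC of the list at 72 h, with 1 SE library left, was then 2.40.

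Timp1, an inhibitor of matrix metalloproteinases, was at 25.3 ± 6.27 CPM in SE 12 h, 157 ± 15.7 in SE 36 h and 81.8 ± 16.3 in SE 72 h, against at most 2.05 CPM in any control (log2FC 9.30, s.e. 0.48 at 36 h). Cd44, a hyaluronan receptor of glia and immune cells, rose by 5.61 (s.e. 0.40), 6.81 (s.e. 0.42) and 3.67 (s.e. 0.39) on the log2 scale at 12, 36 and 72 h. Vim, an intermediate filament of reactive astrocytes, rose by 2.95 (s.e. 0.27), 5.02 (s.e. 0.30) and 5.07 (s.e. 0.31). Ccl2, a chemokine that attracts monocytes, was at 10.1 ± 4.89 CPM in SE 12 h and had at most 3 counts in a Ctr 12 h library. Mmp3, a matrix metalloproteinase, had 0 counts in all Ctr 12 h libraries and was at 3.93 ± 1.85 CPM in SE 12 h (SD, n = 3).

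In Hmox1 and Nts, the SE effect at 36 h was below that at 12 h by the test of the difference. Hmox1, which degrades haem, was at 97.4 ± 32.2 CPM in SE 6 h, 125 ± 77.6 in SE 12 h, 32.4 ± 4.64 in SE 24 h and 24.0 ± 4.90 in SE 36 h. Nts, the neuropeptide neurotensin, was at 216 ± 91.1 CPM in SE 12 h and 9.51 ± 1.27 in SE 36 h, against 8.85 ± 2.31 in Ctr 36 h (SD, n = 3). Gfap and Vim are also astrocyte genes, and the sum of 7 astrocyte markers was 9749 to 11370 CPM in SE 72 h against 1455 to 1890 CPM in controls. Their part in the values of these genes was not tested.

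Of 10 genes of the list known from injured nerve, where Jun and Atf3 are induced, 9 were higher at 12 h, 6 at 36 h and 4 at 72 h, and 1 was lower at 72 h. Of all genes tested, 13.9%, 12.7% and 15.2% were higher at these times. On leaving out the 6 libraries high in ganglion RNA, 8 were higher at 12 h and 6 at 36 h, where 14.9% and 12.3% of all genes tested were. The median log2FC of the list at 72 h, with 1 SE library left, was then 0.95. Hspb1, a small heat shock protein, was at 180 ± 88.5 CPM in SE 12 h, 141 ± 27.9 in SE 36 h and 64.0 ± 28.9 in SE 72 h, against 4.20 ± 1.06 in Ctr 36 h (SD, n = 3). Ctr 72 h replicate 2, the library with the highest sum of sensory ganglion markers, was at 42.6 CPM. Gal, the neuropeptide galanin, was at 34.8 ± 2.89 CPM in SE 36 h and 0.742 ± 0.946 in Ctr 36 h. Ecel1, a peptidase of injured neurons, rose by 3.16 (s.e. 0.57), 5.26 (s.e. 0.67) and 4.90 (s.e. 0.87) on the log2 scale at 12, 36 and 72 h. Sensory ganglia express several genes of this list, and the sum of the ganglion markers differed between libraries as given above.

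Of 16 tested genes for other leucine zipper proteins, which can pair with AP-1 members or compete with them, 9 were higher and 1 lower at 6 h. Of these 16, 7 were higher at both 12 and 24 h, 5 were higher at 36 h, and 5, not all of them the same genes, were higher at 72 h. Of all genes tested, 15.8% were higher and 6.21% lower at 6 h. At 12, 24, 36 and 72 h, 13.9%, 14.9%, 12.7% and 15.2% of all genes tested were higher. With the 6 libraries high in ganglion RNA left out, 17 were tested, of which 8 were higher at 12 h and 5 at 36 h. In that fit, 14.9% and 12.3% of all genes tested were higher at these times. The median log2FC of the list at 72 h, with 1 SE library left, was then 0.40. Maff, a small Maf protein without an activation domain, was at 31.6 ± 12.4 CPM in SE 6 h and 21.5 ± 9.70 in SE 12 h, against 1.42 ± 0.251 in Ctr 12 h (SD, n = 3; log2FC 3.87, s.e. 0.40 at 12 h). Crem, which also gives rise to the repressor ICER, was at 100.4 ± 38.9 CPM in SE 6 h, 45.1 ± 7.34 in SE 12 h and 16.3 ± 5.40 in SE 72 h. Atf4, the factor of the integrated stress response, was at 274 ± 70.0 CPM in SE 12 h and 78.4 ± 4.24 in Ctr 12 h (log2FC 1.80, s.e. 0.17). Mafk rose by 1.35 (s.e. 0.28) at 12 h. Maf was the gene called lower at 6 h.

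Of 15 genes for kinases upstream of AP-1, 1 was higher and 3 lower at 12 h, when 13.9% of all genes tested were higher and 11.4% lower, and 3 were higher and 3 lower at 36 h, when 12.7% and 8.91% were. With so few genes, a difference from the shares over all genes cannot be read from these counts. Rps6ka3, which encodes the kinase RSK2, was higher (log2FC 1.36, s.e. 0.12 at 12 h) and Rps6ka5, which encodes MSK1, lower (-1.60, s.e. 0.18 at 12 h). Of 9 genes for upstream transcription factors, 2 were higher and 1 lower at 12 h, and the same holds. Srf was at 128 ± 58.4 CPM in SE 12 h and 48.6 ± 3.05 in Ctr 12 h (log2FC 1.38, s.e. 0.29). Elk3, a partner of SRF, rose by 1.25 (s.e. 0.16) at 12 h and 2.40 (s.e. 0.16) at 36 h, and Crtc1, a coactivator of CREB, fell by 0.87 (s.e. 0.15) at 12 h. RNA levels do not show the phosphorylation through which these kinases act.

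**Figure D4:**
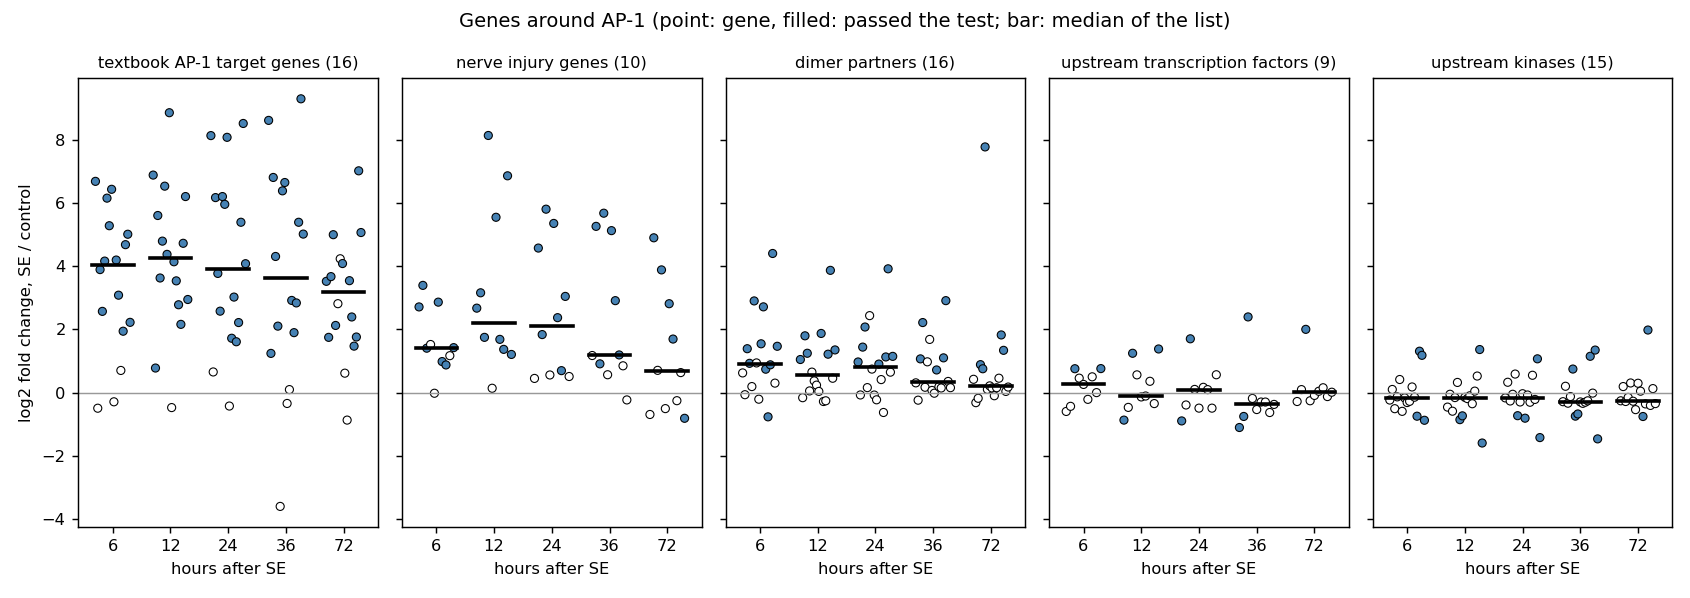
Log2FC of SE against control by hours after SE for the genes of 5 lists around AP-1, with filled points for genes that passed the test and bars for the median of the list. The median of the textbook AP-1 target genes is 4.26 at 12 h and 3.17 at 72 h, while the points of the kinases and upstream transcription factors scatter around 0.

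The genes whose log2 CPM was most like that of each member over the 24 libraries were taken as the 3 with the highest Pearson r. The other AP-1 members, genes with low mean levels and genes with only a provisional symbol (Gm or Rik) or an ID were left out beforehand. The libraries share the groups and the scaling, so r is a description. For Fos they were Tiparp (r = 0.942), Egr1 (0.936) and Gpr3 (0.933), and for Junb Egr1 (0.96), Ccnk (0.915) and Arc (0.912). For Jun they were Lbh (0.952), Klf6 (0.947) and Spry2 (0.937). For Fosb they were Eif1 (0.959), Arpp19 (0.948) and Rheb (0.943), and for Jund Pcsk1 (0.953), Slc25a3 (0.949) and Sf1 (0.937). For Fosl2 they were Plpbp (0.952), Errfi1 (0.947) and Fbxo33 (0.946), and for Fosl1 Fndc9 (0.964), Naa50 (0.964) and Eif6 (0.959). Atf3 had the lowest values, with Sertad1 (0.91), Tmbim1 (0.894) and Tpt1 (0.892). Egr1, another immediate early gene, was shared by Fos and Junb.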

How the data were processed

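CA1 mRNA of 24 libraries, 8 groups of 3, was sequenced in paired ends after poly(A) selection. The authors trimmed reads with Trim Galore 0.6.6, aligned them to GRCm39 with STAR 2.7.8a, used SAMtools 1.10, counted reads per GENCODE M26 gene without strand with HTSeq 0.13.5, merged lanes and deposited raw counts. From these counts, CPM were scaled by TMM. Genes that passed filterByExpr were tested with edgeR 4.0.16 (R 4.3.3), a quasi-likelihood test on group means and 1 RUVr factor estimated from residuals, with Benjamini-Hochberg adjustment over 18153 genes. Genes were called at an adjusted p up to 0.05 with an absolute log2FC from 0.66 upwards against controls, or from 1 upwards between SE times. Differences between effects needed the adjusted p alone. Gene IDs were matched to GENCODE M39, which gave exon lengths for 18552 of 18647 genes.

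The members and gene lists were chosen with earlier results of these data known. From each list up to 4 genes with the greatest absolute log2FC past the threshold were named, and others, such as Hmox1, Nts, Vim and Maf, after their values were seen. Scripts were tested on simulated data. Alternatives were DESeq2 1.42.0, limma-voom (limma 3.58.1), other scalings, filters and thresholds, no RUVr factor, thinned counts, a replicate block, the range of label numbers, compared groups only and omitted libraries. Leaving out the 6 libraries with over 400 CPM of ganglion markers was chosen after seeing the data.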

Additional observations from a re-analysis of the deposited data

Results flagged for a closer look

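In 8 cases, the SE effect of an AP-1 gene differed between time points by a test of the difference itself. Between 12 and 36 h, the effect of Fosb changed by -4.29 and that of Jund by -1.83 on the log2 scale. Between 12 and 72 h, the changes were -3.80 for Fos, -5.22 for Fosb, -2.27 for Fosl2, -2.40 for Junb, -2.42 for Jund and -4.79 for Atf3. The time points compared have separate controls, and the range of Fos and Atf3 moved between these control groups without a call, so a change of effect holds both the SE and the control values. Within the 9 controls, no library of any member stood apart from the others by Dixon's criterion.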

How the results depend on the processing

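The 8 calls at 6 h and at 12 h held under every alternative run, as did the absence of calls between SE 12 h and SE 6 h and of a difference between the effects at 36 and 72 h. Of 1436 values recomputed under alternatives other than leave-one-out, 1335 kept direction and side of the threshold, 21 lost it, 33 gained it and 47 turned direction. Of 1024 leave-one-out values, 924 kept both, 38 lost the threshold, 13 gained it and 49 turned. The number of members called at 72 h was 0 without the RUVr factor, with limma-voom, with thinned counts and with the replicate block, against 1. With the range of label numbers it was 4 at 24 h, against 8, and 1 between SE 24 h and SE 12 h, against 0, where 2 were called without the 6 ganglion-rich libraries. Between SE 36 h and SE 24 h it was 0 without the RUVr factor, with limma-voom or with the range, 2 with DESeq2 or the replicate block, 3 with the compared groups only and 4 without the 6 libraries. Between SE 72 h and SE 36 h it was 0 without the RUVr factor, with limma-voom, with thinned counts, with the compared groups only and without the 6 libraries. Between the effects at 36 and 12 h it was 4 with DESeq2, 1 with limma-voom or thinned counts, 5 with the compared groups only and 6 without the 6 libraries. With the compared groups only it was 3 for Ctr 36 h vs Ctr 12 h and 1 for Ctr 72 h vs Ctr 36 h. For Ctr 72 h vs Ctr 12 h it was 1 with DESeq2 or the replicate block. Leaving out 1 library gave 2 to 3 members at 36 h, 0 to 1 at 72 h, 6 to 8 at 24 h, 0 to 1 for SE 24 h vs SE 12 h, 0 to 3 for SE 36 h vs SE 24 h, 0 to 1 for SE 72 h vs SE 36 h, 0 to 6 for 36 minus 12 h, 5 to 7 for 72 minus 12 h, 0 to 1 for Ctr 72 h vs Ctr 12 h, and 1 to 7 members without overlap at 72 h, where 7 came without SE 72 h replicate 3. Same-numbered libraries had correlations of -0.201 to 0.181 in their deviations, so the numbers do not pair them, and the replicate block moved the count for 36 minus 12 h from 2 to 3. The cause of these changes was not tested. The smallest library held 2663936 counts, which limits Fosl1 at 72 h.

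The log2FC that changed sign were the following. Without the 6 ganglion-rich libraries, the sign turned in 72 minus 36 h (Fosb 0.09, Fosl1 -1.70, Fosl2 0.37), Ctr 72 h vs Ctr 12 h (Fosl1 1.39, Jun -0.0046), Ctr 72 h vs Ctr 36 h (Fosl1 0.10, Fosl2 0.01, Jun -0.034), SE 12 h vs SE 6 h (Fos 0.39, Fosl2 0.61, Jun 0.85, Junb 0.79, Jund 0.15), SE 24 h vs SE 12 h (Atf3 -0.02, Jun -0.05, Junb -0.17), SE 36 h vs Ctr 36 h (Fosb -0.13, Fosl2 -0.038), SE 72 h vs Ctr 72 h (Fosl2 0.34), SE 72 h vs SE 36 h (Fos 0.13, Fosb 0.86, Fosl2 0.38, Junb 0.06, Jund 0.25). With DESeq2, the sign turned in 72 minus 36 h (Fosl1 -0.88), Ctr 72 h vs Ctr 12 h (Fosl1 0.30). With thinned counts, the sign turned in Ctr 36 h vs Ctr 12 h (Jun -0.018), Ctr 72 h vs Ctr 12 h (Fosl1 0.35). With library size alone, the sign turned in 72 minus 36 h (Fosl1 -0.26), Ctr 36 h vs Ctr 12 h (Jun -0.0049). With limma-voom, the sign turned in 72 minus 36 h (Fosl1 -1.29), Ctr 72 h vs Ctr 12 h (Fosl1 0.88), SE 12 h vs SE 6 h (Jun 0.02), SE 36 h vs Ctr 36 h (Fosb -0.0038). Without the RUVr factor, the sign turned in 72 minus 36 h (Fosl1 -1.54), Ctr 72 h vs Ctr 12 h (Fosl1 0.91). With the range of label numbers, the sign turned in Ctr 36 h vs Ctr 12 h (Jun -0.0055, Jund -0.12), Ctr 72 h vs Ctr 36 h (Fosl2 0.022), SE 24 h vs Ctr (Jund -0.16), SE 24 h vs SE 12 h (Junb -0.18), SE 36 h vs Ctr 36 h (Fosb -0.40, Fosl2 -0.22, Junb -0.16, Jund -0.15). With the replicate block, the sign turned in 72 minus 36 h (Fosl1 -0.46), SE 36 h vs Ctr 36 h (Fosb -0.06). Over single libraries left out, the lowest and highest log2FC had opposite signs in 36 minus 12 h (Jun -0.69 to 0.039), 72 minus 36 h (Fosl1 -2.12 to 1.45, Fosl2 -0.62 to 0.029), Ctr 36 h vs Ctr 12 h (Jun -0.07 to 0.15, Jund -0.10 to 0.33), Ctr 72 h vs Ctr 12 h (Fosl1 -2.11 to 1.42, Jun -0.0063 to 0.14), Ctr 72 h vs Ctr 36 h (Fosl1 -3.33 to 0.13, Fosl2 -0.38 to 0.012, Jun -0.08 to 0.14, Junb -0.14 to 0.12), SE 12 h vs SE 6 h (Fos -1.27 to 0.015, Fosl2 -0.79 to 0.66, Jun -0.63 to 0.65, Junb -0.59 to 0.46), SE 24 h vs SE 12 h (Atf3 -0.53 to 1.11, Fosb -1.66 to 0.45, Fosl1 -0.78 to 0.29, Fosl2 -1.01 to 0.28, Jun -0.30 to 0.71, Junb -0.22 to 0.56), SE 36 h vs Ctr 36 h (Fosb -0.10 to 0.23, Fosl2 -0.042 to 0.13, Junb -0.013 to 0.25, Jund -0.06 to 0.14), SE 72 h vs Ctr 72 h (Fosl2 -0.56 to 0.09).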

Other observations

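Marker genes of cell types were counted in the same way. Of all genes tested, 13.9% were higher and 11.4% lower at 12 h, 12.7% and 8.91% at 36 h, and 15.2% and 4.21% at 72 h. Without the 6 libraries high in ganglion RNA, the shares were 14.9% and 12.9% at 12 h and 12.3% and 8.92% at 36 h. With so few markers per cell type, small counts cannot be told from these shares. Of 9 microglial and macrophage markers, 2 were higher at 12 h, 8 at 36 h and 9 at 72 h. Of 7 astrocyte markers, 3 rose and 1 fell at 12 h, 4 rose and 2 fell at 36 h, and 4 rose at 72 h. Gfap, the filament of astrocytes, rose by 3.63 (s.e. 0.25), 4.31 (s.e. 0.26) and 4.999 (s.e. 0.26) on the log2 scale at 12, 36 and 72 h. Of 10 neuronal markers, 2 fell at 12 h, 4 at 36 h and 3 at 72 h. Camk2a and Syt1 were among them each time. Of 6 markers of CA1 pyramidal cells, 3 were lower at 36 h and 2 at 72 h, among them Fibcd1 and Mpped1. Of 5 markers of dentate granule cells, 1 was higher at 36 h and 3 at 72 h, and their sum was highest in SE 72 h replicate 1 (234.7 CPM). Of 7 oligodendrocyte markers, 2 were higher at 36 h and 3 at 72 h. Of 8 endothelial and mural markers, 4 rose and 1 fell at 12 h, 4 rose at 36 h and 3 at 72 h. Of the 3 tested markers of infiltrating leukocytes, 1 was higher at each of these times. Of 12 sensory ganglion markers, 4 were called higher at 12 h and 1 at 36 h, with Calca both times. Without the 6 libraries high in ganglion RNA, 4 of the 5 dentate markers were higher at 36 h. Of the oligodendrocyte markers, 2 were then lower at 12 h and 3 at 36 h, with 2 higher at 36 h. At 72 h, where 1 SE library was left, the median log2FC of the dentate markers was 1.37 (3.03 with all libraries). It was 0.80 (0.51) for oligodendrocyte, 0.48 (0.39) for endothelial and mural, -0.46 (-0.36) for neuronal and -1.09 (2.65) for leukocyte markers.

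Junos, transcribed from the other strand beside Jun and sharing 16.6% of its exon bases, had group means of 0.447 to 2.92 CPM, low against Jun. Prdx2, which shares 7.27% of the exon bases of Junb, had group means of 102.2 to 161.7 CPM. Reads in the shared bases cannot be assigned to either gene.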
